A study of Drosophila melanogaster with 12 samples.

Results

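Glutathione transferases are enzymes that join the tripeptide glutathione to reactive compounds, among them insecticides and the aldehydes left by lipid peroxidation, and so make them easier to remove. In insects the soluble enzymes fall into the classes delta (D), epsilon (E), omega (O), sigma (S), theta (T) and zeta (Z), of which delta and epsilon have expanded into clusters of neighbouring genes. Several members are known to be induced by oxidants and toxicants, and some have acquired tasks of their own, such as the part of GstE14 (also called Noppera-bo) in ecdysteroid synthesis. The genes described here are all those whose current symbol is Gst followed by a class letter and a number. There were 35 of them, with 37 probes, out of 12058 genes with a value, and these are the 35 such genes of the reference gene table. Class D had 11 genes, E had 14, O had 3, S had 1, T had 4 and Z had 2. All 35 were tested, since the value table carried no filter on low values.

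The series measured RNA from wing imaginal discs, the larval epithelial sacs that form the adult wing, when they were left whole or cut and then cultured inside a host. Discs of the isogenic line spelled w118iso; 2iso; 3iso in the labels were taken from larvae of the last instar, and for the cut group (C) a posterior sector was removed so that an anterior fragment was left. Intact (NC, non cut) and cut discs were implanted in young Canton S females. The comparisons were NC0→NC24, which set intact discs at 24 hours of implantation against intact discs at 0 hours, C0→C24, the same for cut discs, and C24→C72, cut discs at 72 hours against cut discs at 24 hours. Each comparison had 2 biological replicates, each hybridized in both dye orientations, which gave 4 arrays per comparison and 12 arrays in all. How many discs or hosts were pooled is not given in the sources used here. P-values rest on the spread between replicates, estimated once per gene over all comparisons and moderated by limma towards the spread of all genes. A gene therefore has the same standard error (SE) in each comparison. The p-values of C24→C72 thus do not measure the spread of its own replicates alone. There were no intact discs at 72 hours, the hosts were adults of another strain, and recovered discs can carry host tissue with them.

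The values are the authors' ratios, taken as log2, in which a value above 0 stands for more RNA at the later time. Direction was inferred, since arrays of opposite dye orientation correlated positively and the signs of the transcription factors the study lists were the same. Neither gives the base of the logarithm, which was taken as 2, so that fold values and the 1.5-fold threshold rest on that base. The ratios hold no brightness, so that they show change and not presence, and the disc identity of the RNA could not be tested by level. In whole-tissue RNA, fewer cells of a type and less RNA per cell cannot be told apart. A gene was called where the adjusted p of limma was under 0.05 over all genes and the change at least 1.5-fold. Correlation over all genes between dye-swapped arrays of the same RNA was 0.69 to 0.84 in the pairs of NC0→NC24 and C0→C24, but 0.44 and 0.20 in C24→C72, which is the least precise comparison. The RNA of C24 takes part in both C0→C24 and C24→C72, and enters them with opposite signs. Probe sequences were not analysed, so that hybridization across similar members of a cluster cannot be told apart from their own signal.

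In the first 24 hours, glutathione transferase genes changed in both directions in intact as well as cut discs. GstE6 had the largest rise of the family in both, 4.14-fold in NC0→NC24 and 3.02-fold in C0→C24, followed in cut discs by GstE1, GstT4 and GstO1 at 2.72-fold, 2.71-fold and 2.70-fold. GstE14 and GstZ1 fell in both, by 2.23-fold and 1.75-fold in intact discs and by 1.87-fold and 1.77-fold in cut discs. In NC0→NC24, 8 of the 35 genes (22.9%) rose, where 5.14% of all genes did, and 2 fell (5.71%, against 3.85% of all genes). In C0→C24, 5 rose (14.3%, against 6.12% of all genes) and 3 fell (8.57%, against 4.94%). The median change over the family was 0.10 in intact discs, where replicate 1 gave 0.28 and replicate 2 gave 0.03, and -0.04 in cut discs. The medians of all genes were -0.0025 and -0.0125.

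**Figure D1:**
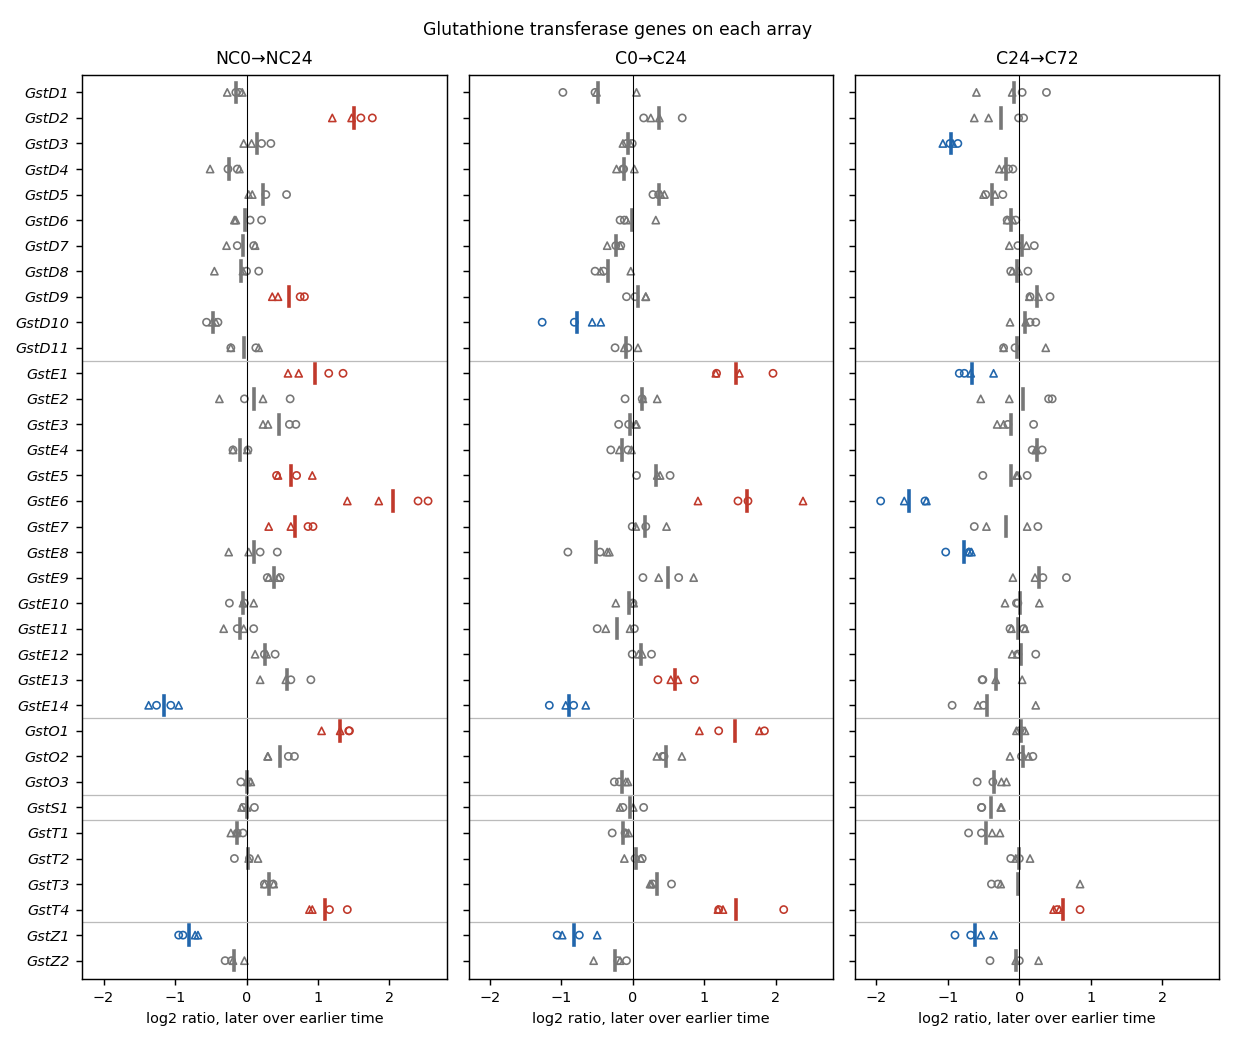
Log2 ratio (later over earlier time) of each glutathione transferase gene on each array, with circles for replicate 1, triangles for replicate 2 and vertical bars for the mean of the 4 arrays. Genes called higher are red and genes called lower are blue, most of the 35 genes lie close to 0, and GstE6, GstE1, GstO1 and GstT4 stand to the right in both 24-hour comparisons.

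In the first day 6 genes were called in both intact and cut discs with the same sign (17.1% of the 35, against 7.61% of all genes). These, GstE1, GstE6, GstO1 and GstT4 higher and GstE14 and GstZ1 lower, made up 60% of the 10 calls of NC0→NC24 and 75% of the 8 calls of C0→C24, where over all genes the shares were 84.7% of 1084 and 68.8% of 1334. GstD2, GstD9, GstE5 and GstE7 were called higher in intact discs but not in cut discs. GstE13 was called higher and GstD10 lower in cut discs but not in intact discs. The difference between the changes, C0→C24 minus NC0→NC24, was tested in the same model, and limma called none of the 35 genes in it, where 0.0581% of all genes were called higher and 0.0166% lower. An unadjusted p under 0.05, without a call, was found for GstE1 with cut discs above intact discs (1 of 35, 2.86%, against 3.05% of all genes) and for GstD2, GstD9, GstE3, GstE5, GstE7 and GstE8 with cut discs below (6 of 35, 17.1%, against 2.89%). By replicate means, cut discs lay below intact discs in both replicates against both for 14 of 35 genes (40%, against 20% of all genes) and above for 4 (11.4%, against 17.1% of all genes).

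**Figure D2:**
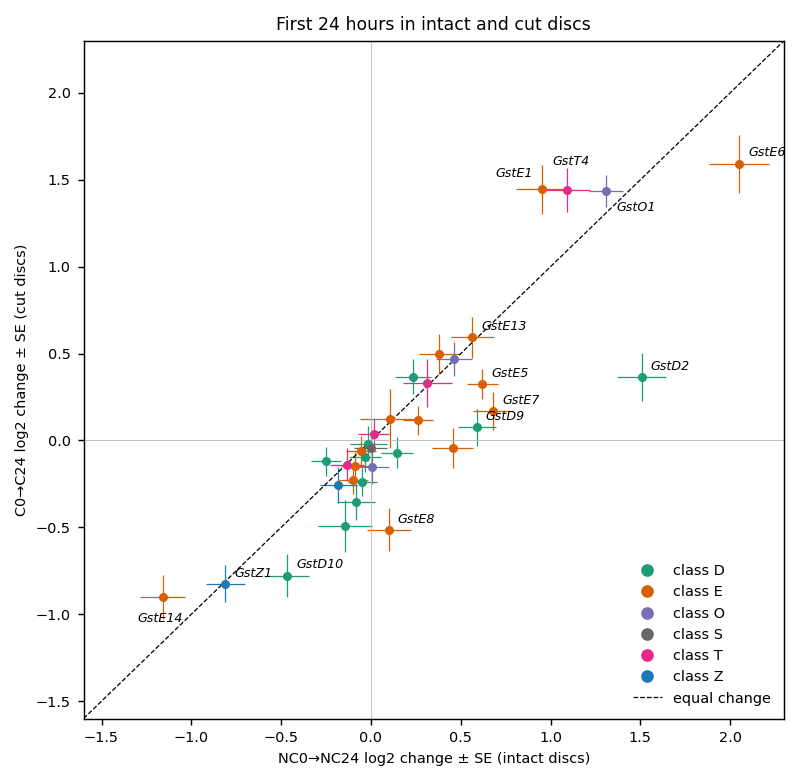
Change over the first 24 hours in intact discs (x axis) and cut discs (y axis), both as log2 change with the SE of the model (2 replicates each), coloured by class. Most genes lie along the line of equal change, and GstD2 (1.51 in intact discs, 0.36 in cut discs) is the farthest below it.

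The epsilon class, the largest of the family, held the widest range of changes in each of the 3 comparisons. Of its 14 genes, 10 lie side by side on chromosome arm 2R in the order GstE10, GstE1, GstE2, GstE3, GstE4, GstE5, GstE6, GstE7, GstE8 and GstE9, and GstE11, GstE12, GstE13 and GstE14 lie singly elsewhere on that arm. In NC0→NC24, 4 of the 10 clustered genes rose (40%, against 5.14% of all genes) and none fell, with a median of 0.42. In C0→C24, 2 rose (20%, against 6.12%) and none fell, with a median of 0.15. In C24→C72, 3 of the 10 fell (30%, against 1.58%) and none rose. Some neighbours moved together and others did not. GstE5, GstE6 and GstE7 all rose in NC0→NC24, whereas GstE10, whose annotated range overlaps that of GstE1, changed by -0.06 in both 24-hour comparisons, while GstE1 rose in both.

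GstE6, an epsilon enzyme within the cluster, read 2.54 and 2.4 on the arrays of replicate 1 and 1.85 and 1.41 on those of replicate 2 in NC0→NC24. In C0→C24 the arrays read 1.47 and 1.61 in replicate 1, and 2.38 and 0.91 in replicate 2. All 8 arrays were far above 0, although the dye-swapped pair of replicate 2 in cut discs was wide apart. The rises were 2.05 ± 0.17 (SE, adjusted p = 0.00011) in intact discs and 1.59 ± 0.17 (adjusted p = 0.00017) in cut discs, and their difference of -0.46 (95% interval -0.99 to 0.08) had an adjusted p of 0.90. From 24 to 72 hours GstE6 read -1.94, -1.32, -1.61 and -1.30, a fall of 1.54 ± 0.17 on the log2 scale (2.91-fold, adjusted p = 0.0018). This was the largest fall among the 35 genes in C24→C72, and the net change from 0 to 72 hours in cut discs was 0.05 ± 0.23.

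GstE1, which conjugates the lipid peroxidation product 4-hydroxynonenal, read 1.15 and 1.35 in replicate 1 and 0.58 and 0.73 in replicate 2 of intact discs. In cut discs it read 1.17 and 1.96 in replicate 1 and 1.49 and 1.16 in replicate 2. It rose by 0.95 ± 0.14 (adjusted p = 0.0016) and 1.45 ± 0.14 (adjusted p = 0.00013). Both cut replicates were above both intact ones, but the difference of 0.49 (95% interval 0.03 to 0.95) had an adjusted p of 0.80. In C24→C72 its arrays read -0.84, -0.77, -0.36 and -0.68, and it fell by 0.66 ± 0.14 (1.58-fold, adjusted p = 0.024). That call was lost without either replicate of C0→C24 or of C24→C72, with adjusted p between 0.056 and 0.18. The net change at 72 hours was 0.78 ± 0.20 (adjusted p = 0.021), a call that was lost without either replicate of C0→C24 (adjusted p = 0.16 without replicate 1 and 0.066 without replicate 2) or without replicate 2 of C24→C72 (0.094).

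Of the markers of larval fat body, a tissue that lies beside discs in the larva, Lsp2 and Fbp2 also rose and then fell in cut discs, as GstE6 and GstE1 did. Of the 7 genes of that list 4 had a value (Lsp1alpha, Lsp1beta and Lsp1gamma had none), and 3 of them rose in C0→C24 (75%, against 6.12% of all genes), within a range of 0.13 to 1.97. In C24→C72, 2 of the 4 fell (50%, against 1.58%), within a range of -2.20 to -0.29. Lsp2, a larval storage protein, rose by 1.97 ± 0.37 and fell by 2.20 ± 0.37 on the log2 scale in C24→C72. Fbp2 rose by 0.92 ± 0.11 and then fell by 0.76 ± 0.11. In NC0→NC24, where GstE6 rose most, Lsp2 changed by -0.39 ± 0.37 and Fbp2 by -0.15 ± 0.11, and fat-spondin alone of the list rose, by 0.97 ± 0.09. In cut discs fat-spondin rose by 1.96 ± 0.09, a difference of 0.99 ± 0.12 (adjusted p = 0.040), and changed by -0.29 ± 0.09 (adjusted p = 0.076) in C24→C72, so that its net change was 1.67 ± 0.12. Fbp1 changed by 0.13 ± 0.10 in C0→C24 and -0.43 ± 0.10 in C24→C72 and was not called. The part of fat body RNA in the cut-disc values was not tested.

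GstE5 and GstE7, the neighbours of GstE6, had smaller rises that were called in intact discs. GstE5 read 0.42 and 0.70 in replicate 1 and 0.44 and 0.92 in replicate 2 of intact discs, a rise of 0.62 ± 0.09 (adjusted p = 0.0011). In cut discs it changed by 0.32 ± 0.09 (adjusted p = 0.022), under the 1.5-fold threshold. Without replicate 2 of intact discs the rise of GstE5 was 0.56 and also under that threshold. GstE7 read 0.86 and 0.93 in replicate 1 and 0.62 and 0.31 in replicate 2 of intact discs, a rise of 0.68 ± 0.11 (adjusted p = 0.0023), and changed by 0.17 ± 0.11 in cut discs. The call of GstE7 was lost without replicate 1 of intact discs (adjusted p = 0.065). The differences were -0.30 (adjusted p = 0.80) and -0.51 (adjusted p = 0.49), with cut discs below intact discs in both replicates for both genes. GstE3 had the same arrangement without a call, at 0.46 ± 0.12 in intact and -0.04 ± 0.12 in cut discs.

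GstE8 was below 0 on all 8 arrays of the cut discs. In C0→C24 it read -0.46 and -0.91 in replicate 1 and -0.33 and -0.36 in replicate 2, a change of -0.52 ± 0.12 (adjusted p = 0.014) that stayed under 1.5-fold. In C24→C72 it read -1.03, -0.70, -0.71 and -0.67 and fell by 0.78 ± 0.12 (1.71-fold, adjusted p = 0.0079), a call that was lost without replicate 1 of that comparison (adjusted p = 0.064). From 0 to 72 hours it fell by 1.29 ± 0.17 (2.45-fold, adjusted p = 0.00088). In intact discs it changed by 0.10 ± 0.12, and the difference of -0.62 (95% interval -1.01 to -0.22) had an adjusted p of 0.40.

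GstE9 was called in the net change from 0 to 72 hours alone, where it rose by 0.78 ± 0.16 (1.71-fold, adjusted p = 0.0073). It read 0.14, 0.64, 0.85 and 0.36 in C0→C24 and 0.33, 0.66, -0.09 and 0.22 in C24→C72, with means of 0.50 ± 0.11 and 0.28 ± 0.11. Its change in intact discs was 0.38 ± 0.11. That call was lost without replicate 2 of C0→C24 (adjusted p = 0.072), and without replicate 1 of C24→C72 the change of 0.56 was under 1.5-fold. The annotated range of GstE9 overlaps that of imd, and without strand or probe positions the signals of overlapping genes cannot be told apart.

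**Figure D3:**
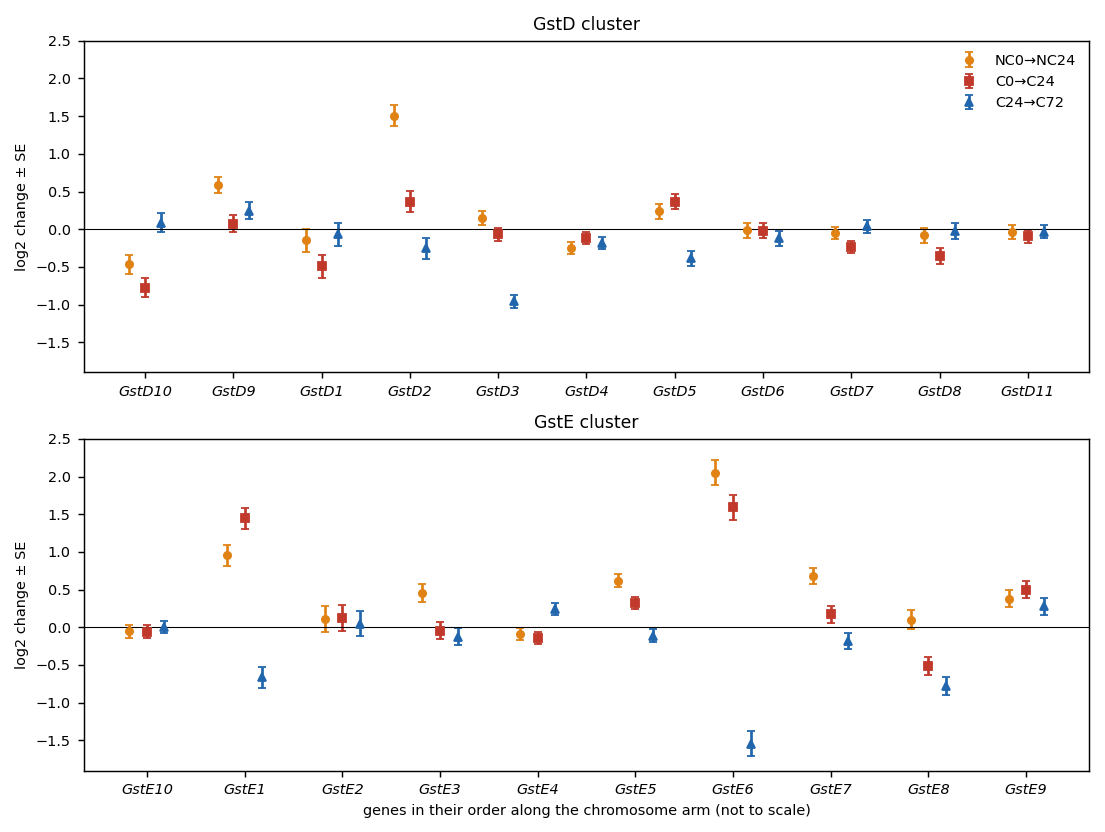
Log2 change ± SE (model, 2 replicates) of the genes of the GstD cluster on chromosome arm 3R and of the GstE cluster on 2R, in their order along the arm, for NC0→NC24, C0→C24 and C24→C72. GstE6 has the largest rise, flanked in NC0→NC24 by smaller ones of GstE5 (0.62) and GstE7 (0.68), and GstD3 has its single change, -0.96, in C24→C72.

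Outside the cluster, GstE14 had the largest fall of the family in both 24-hour comparisons. This enzyme, known as Noppera-bo, acts in the prothoracic gland in the supply of cholesterol for ecdysteroid synthesis. It read -1.26, -1.06, -1.37 and -0.95 in NC0→NC24 and -0.83, -1.17, -0.94 and -0.66 in C0→C24. Each array was below 0 and the arrays of intact and cut discs overlapped, and the gene fell by 1.16 ± 0.13 (adjusted p = 0.00032) and 0.90 ± 0.13 (adjusted p = 0.00083) on the log2 scale. In C24→C72 it read -0.94, -0.50, 0.23 and -0.58, a change of -0.45 ± 0.13 (adjusted p = 0.060), and the net fall from 0 to 72 hours was 1.35 ± 0.18 (2.54-fold, adjusted p = 0.00077).

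GstE13 had nearly the same value in intact and cut discs, although it was called in cut discs alone. It read 0.62, 0.90, 0.19 and 0.55 in NC0→NC24, a change of 0.56 ± 0.12 (adjusted p = 0.0092), and 0.35, 0.86, 0.53 and 0.63 in C0→C24, a rise of 0.59 ± 0.12 (adjusted p = 0.0059). The difference was 0.03 (95% interval -0.36 to 0.41), and the call lay at 1.51-fold, just past the threshold. It was lost without replicate 1 (adjusted p = 0.11) or replicate 2 (adjusted p = 0.083) of C0→C24. GstE2, GstE4, GstE10, GstE11 and GstE12 were called nowhere.

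The delta class, with 11 genes, lies in a single cluster on chromosome arm 3R, and GstD2, GstD3, GstD9 and GstD10 were called. In NC0→NC24, 2 rose (18.2%, against 5.14% of all genes), GstD2 and GstD9. None rose and 1 fell in C0→C24, GstD10 (9.09%, against 4.94%), and none rose and 1 fell in C24→C72, GstD3 (9.09%, against 1.58%). The class medians were -0.04, -0.09 and -0.07, with 0.09 in replicate 1 and -0.08 in replicate 2 of NC0→NC24 and 0.00 and -0.13 in C24→C72, and C0→C24 minus NC0→NC24 was below 0 for 9 of 11 genes, with a median of -0.22 where that of all genes was -0.01.

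GstD2, which is known to be induced by oxidants, gave the largest contrast between intact and cut discs of the family. In NC0→NC24 it read 1.76 and 1.60 in replicate 1 and 1.47 and 1.20 in replicate 2. In C0→C24 it read 0.15 and 0.69 in replicate 1 and 0.37 and 0.25 in replicate 2. The arrays of both groups did not overlap, and the gene rose by 1.51 ± 0.14 in intact discs (2.84-fold, adjusted p = 0.00015), while the change in cut discs was 0.36 ± 0.14 (adjusted p = 0.086). The difference was -1.14 (95% interval -1.58 to -0.70). Its unadjusted p was 0.00026 and its adjusted p over all genes 0.11, so that it missed the threshold. The adjusted p ranged from 0.031 to 0.66 over the alternatives. It was 0.031 when the genes of smallest spread over the arrays were left out, 0.035 with all 12 arrays and a dye term, and 0.047 without either replicate of C24→C72. Without replicate 1 or 2 of C0→C24 it was 0.66 and 0.53, and without replicate 1 or 2 of NC0→NC24 it was 0.55 and 0.32. The difference was between -1.31 and -0.97 in all of these. The filter used the spread over all 12 arrays, to which a difference between groups adds, so that it favours genes with such a difference. In the fit of 12 arrays the residual correlation of dye swaps was estimated at 0.025, so that they counted almost as separate replicates. No array set intact against cut discs directly, so that the 0-hour RNA of both groups enters this difference. In C24→C72 GstD2 changed by -0.25 ± 0.14 and from 0 to 72 hours by 0.11 ± 0.19.

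GstD9, a neighbour of GstD1 in the cluster, read 0.75 and 0.81 in replicate 1 and 0.44 and 0.36 in replicate 2 of NC0→NC24. It rose there by 0.59 ± 0.11 (1.51-fold, adjusted p = 0.0044), and its change in C0→C24 was 0.07 ± 0.11. The difference of -0.52 had an adjusted p of 0.45, and the rise lost its call without replicate 1 of intact discs (adjusted p = 0.12). With arrays scaled to a common spread it was 0.58 and under 1.5-fold.

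GstD10, at the other side of GstD9, was below 0 on all 8 arrays of the first day. It read -0.40, -0.56, -0.43 and -0.48 in NC0→NC24, a change of -0.47 ± 0.12 (adjusted p = 0.026). In C0→C24 it read -0.82 and -1.27 in replicate 1 and -0.57 and -0.45 in replicate 2, and it fell by 0.78 ± 0.12 (1.71-fold, adjusted p = 0.0018). Without replicate 1 of C0→C24 the change was -0.51 and the call was lost (adjusted p = 0.055). The difference between the 2 kinds of disc was -0.31 (adjusted p = 0.96). The net fall at 72 hours, 0.69 ± 0.18 (adjusted p = 0.020), was lost without replicate 1 of C0→C24 (adjusted p = 0.13) or replicate 2 of C24→C72 (0.084).

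GstD3 was close to 0 in the first day, with 0.14 ± 0.09 in intact and -0.07 ± 0.09 in cut discs. In C24→C72 it read -0.97, -0.86, -1.07 and -0.93, the tightest set of arrays among the genes called there. The fall was 0.96 ± 0.09 on the log2 scale (1.94-fold, adjusted p = 0.00096), and from 0 to 72 hours it was 1.03 ± 0.13 (2.04-fold, adjusted p = 0.00058).

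GstD1, a major transferase of the fly known for its DDT dehydrochlorinase activity and used as a reporter of oxidative stress, was not called. It read -0.10, -0.15, -0.06 and -0.27 in intact discs. In cut discs it read -0.53 and -0.98 in replicate 1 and -0.51 and 0.05 in replicate 2, a change of -0.49 ± 0.15 (adjusted p = 0.042) that stayed under 1.5-fold. GstD4, GstD5, GstD6, GstD7, GstD8 and GstD11 were called nowhere.

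The omega class, known for thioltransferase and dehydroascorbate reductase activities, lies as GstO3, GstO2 and GstO1 on chromosome arm 3L. GstO1 had the smallest adjusted p of the family in both 24-hour comparisons. It read 1.43, 1.44, 1.31 and 1.05 in intact discs and 1.20, 1.84, 1.77 and 0.93 in cut discs. The groups overlapped, with rises of 1.31 ± 0.09 (2.48-fold, adjusted p = 7.3e-05) and 1.44 ± 0.09 (adjusted p = 2.2e-05) and a difference of 0.13 (95% interval -0.17 to 0.43). In C24→C72 its arrays read 0.00, 0.04, -0.04 and 0.08, a change of 0.02 ± 0.09, so that the net change from 0 to 72 hours was 1.46 ± 0.13 (2.74-fold, adjusted p = 0.00015).

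GstO2 had a change of 0.46 ± 0.10 (adjusted p = 0.0093) in intact discs and 0.47 ± 0.10 (adjusted p = 0.0073) in cut discs, both under 1.5-fold. Its 2 probes read 0.33 and 0.60 in NC0→NC24 and 0.31 and 0.62 in C0→C24. Its annotated range overlaps that of se (sepia), the omega-type enzyme that makes a precursor of the red eye pigment, which rose by 0.72 ± 0.09 in C0→C24 and 0.92 ± 0.09 in C24→C72. In C24→C72, where se rose, GstO2 was at 0.06 ± 0.10. GstO3 was called nowhere, with 0.01, -0.16 and -0.35 in the 3 comparisons.

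Among the 4 theta genes, GstT4 on the X chromosome changed most. It read 1.16, 1.41, 0.92 and 0.88 in intact discs and 1.20, 2.11, 1.26 and 1.19 in cut discs. It rose by 1.09 ± 0.13 (2.13-fold, adjusted p = 0.00048) and 1.44 ± 0.13 (adjusted p = 8.1e-05), and the difference of 0.35 had an adjusted p of 0.91. In C24→C72 it read 0.85, 0.53, 0.56 and 0.48. There it rose by 0.60 ± 0.13 (1.52-fold, adjusted p = 0.023), the single rise of the family in that period, and from 0 to 72 hours by 2.04 ± 0.18 (4.13-fold, adjusted p = 0.00013). The call in C24→C72 was lost without replicate 1 (adjusted p = 0.15) or replicate 2 (adjusted p = 0.068) of that comparison, and with arrays centred on their medians the rise was 0.58, under 1.5-fold. GstT1 changed by -0.14 ± 0.10 in both 24-hour comparisons. In C24→C72 it read -0.71, -0.53, -0.27 and -0.38, a change of -0.47 ± 0.10 (adjusted p = 0.019) under 1.5-fold. Its net fall of 0.61 ± 0.14 (1.53-fold, adjusted p = 0.010) was lost without replicate 1 of C0→C24 (adjusted p = 0.091), and without replicate 1 of C24→C72 the change was -0.47. GstT2 and GstT3 were called nowhere.

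The zeta class, the maleylacetoacetate isomerases of tyrosine breakdown, has 2 neighbouring genes on 3R that differed in size of response. GstZ1 read -0.89, -0.95, -0.72 and -0.68 in NC0→NC24, -0.75, -1.06, -0.99 and -0.50 in C0→C24, and -0.90, -0.68, -0.54 and -0.36 in C24→C72. It was below 0 on all 12 arrays, and it was the single gene of the family that fell in all 3 comparisons. The falls were 0.81 ± 0.11 (adjusted p = 0.00084), 0.82 ± 0.11 (adjusted p = 0.00057) and 0.62 ± 0.11 (adjusted p = 0.011) on the log2 scale, and 1.45 ± 0.15 (2.72-fold, adjusted p = 0.00027) from 0 to 72 hours. The call in C24→C72 was lost without replicate 1 of that comparison (adjusted p = 0.082). GstZ2 changed by -0.18, -0.26 and -0.05 and was called nowhere.

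GstS1, the sigma enzyme abundant in flight muscle and active on 4-hydroxynonenal, was called nowhere. Its change was 0.00 ± 0.09 in intact discs and -0.04 ± 0.09 in cut discs over the first day, and -0.39 ± 0.09 (adjusted p = 0.034) in C24→C72. Its 2 probes disagreed in that last comparison, with -0.10 for the one and -0.68 for the other.

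From 24 to 72 hours, more genes of the family fell than rose. Of the 35 genes, 5 fell (14.3%, against 1.58% of all genes), GstE6, GstD3, GstE8, GstE1 and GstZ1 in order of size, and 1 rose (2.86%, against 1.36% of all genes), GstT4. The median was -0.07, and that of all genes 0.03. In the net change from 0 to 72 hours, 4 genes rose (11.4%, against 9.43% of all genes), GstT4, GstO1, GstE1 and GstE9, and 6 fell (17.1%, against 7.4% of all genes), GstZ1, GstE14, GstE8, GstD3, GstD10 and GstT1. Fitted on its own replicates alone, C24→C72 kept the call of GstE6 and of no other gene of the family. The loss was general, since over all genes that fit called 7 rises and 20 falls, where the main model called 164 and 190. The yolk protein genes Yp1, Yp2 and Yp3, which adult female fat body and follicle cells express, had a median change of 2.10 in replicate 1 and 0.22 in replicate 2 of C24→C72, and none of the 3 was called. The part of host tissue in that comparison was not tested.

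**Figure D4:**
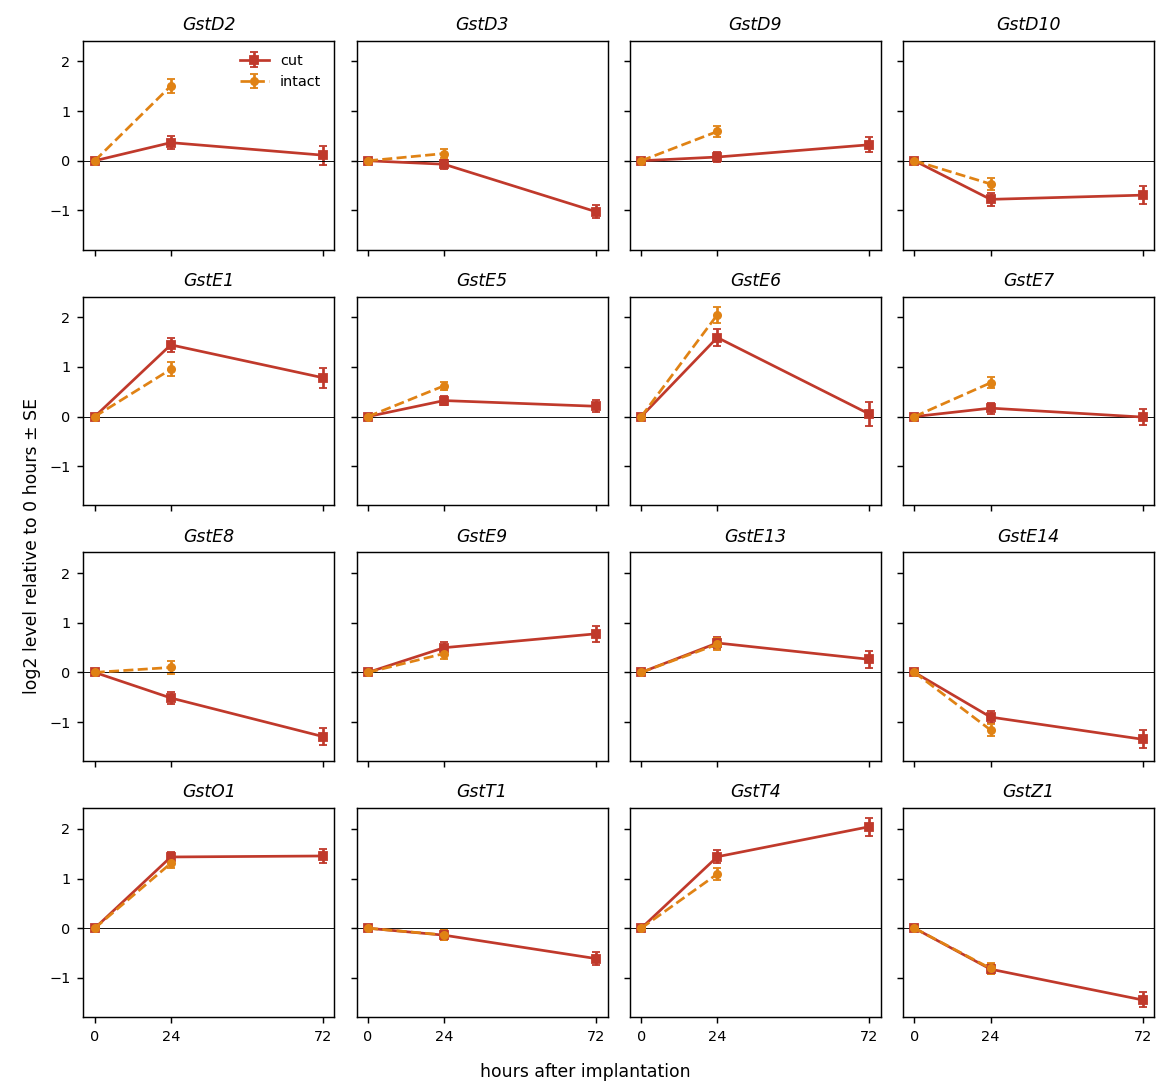
Log2 level relative to 0 hours in cut discs (solid red, 0, 24 and 72 hours) and intact discs (dashed orange, 0 and 24 hours) for the 16 genes called in at least 1 comparison or in the net change, with SE of the model and the 0-hour value set to 0. GstE6 returns to 0.05 at 72 hours, GstO1 stays at 1.46, and GstT4 goes on to 2.04.

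The 16 genes called in at least 1 comparison or in the net change thus followed several courses in cut discs. GstE6 and GstE1 rose and then fell, GstO1 rose and then read close to 0, GstE13 rose in the first period, and GstT4 rose in both. GstE9 and GstT1 were called in the net change alone, and GstD2, GstD9, GstE5 and GstE7 in intact discs alone. GstZ1 fell in both, GstE14 and GstD10 fell in the first, and GstD3 and GstE8 fell in the second. The 19 genes called nowhere had changes between -0.49 and 0.47 in the 3 comparisons, with 7 of them in class D, 6 in class E, 2 in O, 1 in S, 2 in T and 1 in Z. An estimate between these limits with an SE of 0.08 to 0.17 does not show that a gene was unchanged.

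Of 14 genes listed for the supply of glutathione 12 had a value. In each 24-hour comparison 1 rose and 1 fell (8.33% each, against 5.14% and 3.85% of all genes in intact and 6.12% and 4.94% in cut discs), while none was called in C24→C72. Gclm, the modifier subunit of glutamate-cysteine ligase, the rate-limiting enzyme of glutathione synthesis, rose by 0.85 ± 0.08 in NC0→NC24 and 0.73 ± 0.08 in C0→C24. Gclc, its catalytic subunit, changed by 0.43 ± 0.09 (adjusted p = 0.0081) and 0.28 ± 0.09 (adjusted p = 0.045), both under 1.5-fold. Cth, cystathionine gamma-lyase of cysteine synthesis, fell by 0.60 ± 0.10 and 0.92 ± 0.10. Trxr1, the thioredoxin reductase that in flies stands in for glutathione reductase, was called in the net change alone, where it fell by 0.64 ± 0.16.

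Of 12 other genes that use glutathione or share the transferase fold, 1 fell in each 24-hour comparison (8.33%, against 3.85% and 4.94% of all genes), Glo1, the glyoxalase that clears methylglyoxal. It fell by 1.15 ± 0.09 in NC0→NC24 and 1.33 ± 0.09 in C0→C24 on the log2 scale. In C0→C24 and in C24→C72, se was the single gene of the list that rose (8.33%, against 6.12% and 1.36%). CncC, encoded by cnc, is a transcription factor that induces transferase genes when its inhibitor Keap1 releases it. Of the 4 genes listed for that control, cnc changed by -0.14 ± 0.08 in NC0→NC24 and 0.07 ± 0.08 in C0→C24, and Keap1 by 0.00 ± 0.08 and -0.04 ± 0.08. The autophagy receptor gene ref(2)P rose by 1.18 ± 0.10 and 0.69 ± 0.10, and maf-S, the partner of CncC, by 0.60 ± 0.17 in the net change. Of 16 antioxidant genes 11 had a value, of which 1 fell in C0→C24 (9.09%, against 4.94%) and 2 rose in C24→C72 (18.2%, against 1.36%). Sod2, the mitochondrial superoxide dismutase, fell by 0.65 ± 0.09 in C0→C24. In NC0→NC24 it changed by -0.495 ± 0.09 (adjusted p = 0.0039), under 1.5-fold. The peroxiredoxin genes Prx6b and Prx6c rose by 0.87 ± 0.23 (adjusted p = 0.049) and 0.82 ± 0.19 (adjusted p = 0.034) in C24→C72. Probe sequences were not analysed, so that a signal shared by these 2 genes was not tested. Cat (catalase) was at 0.10, -0.20 and 0.23 without a call.

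Markers of other tissues moved in these comparisons too. Of 8 genes of hemocytes, the blood cells of the fly, 2 rose in NC0→NC24 (25%, against 5.14% of all genes) and 5 in C0→C24 (62.5%, against 6.12%), with ranges of -0.53 to 1.11 and -0.05 to 1.55, and none was called in C24→C72. The difference between the changes of cut and intact discs was called for 2 of the 8 (25%, against 0.0581% of all genes). These were eater (1.29 ± 0.13) and He (1.01 ± 0.13), both with the change in cut discs above that in intact discs. He was called in neither comparison alone, with -0.53 ± 0.09 (adjusted p = 0.0027) in intact and 0.475 ± 0.09 (adjusted p = 0.0039) in cut discs. Of 7 genes of midgut and Malpighian tubule, tissues rich in transferases, 6 had a value and none was called, within a range of -0.29 to 0.22. Of 8 wing disc genes 6 had a value, and 1 fell in C0→C24 (16.7%, against 4.94% of all genes), nub, by 0.64 ± 0.09. In NC0→NC24 nub changed by -0.51 ± 0.09 (adjusted p = 0.0035), under 1.5-fold, and the difference of -0.13 had an adjusted p of 0.997. The part of blood cells in the transferase values was not tested.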

How the data were processed

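RNA of intact and cut wing discs was compared on 12 arrays of 2 colours. The deposited values, taken as log2 ratios, were obtained by the authors from GenePix scans and normalized within each comparison's 4 arrays by OLIN's mad method. The authors' limma version is not given in the sources used here, and no intensities were used. Of 16416 features, 13164 carried 1 gene symbol, 101 several and 3151 none. Symbols were updated by gene identifier (12533) or accession (120), 511 were kept as deposited, and probes of a gene were averaged to 12058 genes. Both dye orientations of an amplified RNA were averaged. The resulting 6 replicate values were fitted in 1 model of 3 groups with limma 3.58.1 (R 4.3.3), which leaves 3 residual degrees of freedom. Moderation drew the spread of each gene towards that of all genes, with 5.64 prior degrees of freedom. P-values were adjusted by Benjamini-Hochberg over all genes. The difference (C0→C24 minus NC0→NC24) and the net change (C0→C24 plus C24→C72) are contrasts of that model. It takes the replicate values as independent, so that the SE and p of the net change do not allow for the shared RNA of C24. The steps were tested on simulated data, with the same noise for a gene in every comparison, unlike the real C24→C72. It changed 200 of the 12058 genes, fewer than the 1084 and 1334 called in NC0→NC24 and C0→C24. Of true 1.5-fold changes 33.2% to 33.9% were called, and of 2-fold changes 87% to 87.7%, with 1.4 to 2.2 false calls on average. By adjusted p alone 55.5% to 57.6% of the 1.5-fold changes passed, since the fold threshold removes estimates that fall short of the true change. Many changes near 1.5-fold would thus not be called.

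Full values were to be given for genes called in any comparison, the difference or the net change, and for the largest change in each class. The members and the lists of other genes were chosen with earlier results of these data known. Alternatives were another fold threshold, all arrays with a dye term, comparisons fitted alone, a replicate block, centring, scaling, single probes, a filter on spread, robust moderation and leaving out each replicate. The number of arrays limits the precision, and annotated ranges were used for neighbours and overlaps alone.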

Additional observations from a re-analysis of the deposited data

Results flagged for a closer look

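Within the sets of 4 arrays of a comparison, 5 of 105 sets held an array far from the other arrays by Dixon's test, and chance gives about 1 in 20. In C0→C24 these were GstT4 at 2.11 and GstT3 at 0.54, both on dye-swap array B of replicate 1, and GstE10 at -0.24 on array B of replicate 2. In C24→C72 they were GstE8 at -1.03 in replicate 1 and GstT3 at 0.85 in replicate 2, whose dye-swapped partner read -0.26.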

How the results depend on the processing

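No direction was reversed among the called changes of single genes and the medians over the 35 genes. For single genes a reversal was not possible where a setting altered only the threshold, the error or the set of genes. Nor was it possible where the replicate left out belonged to a comparison that does not enter the change. The class D median of NC0→NC24 turned sign between replicates, with 0.09 in replicate 1 and -0.08 in replicate 2. Among the 35 genes, NC0→NC24 had 10 calls, C0→C24 had 8, C24→C72 had 6 and the net change had 10, and a 2-fold threshold gave 5, 4, 1 and 6. Without a fold threshold C0→C24 gave 15. C24→C72 fitted alone gave 1 call, and over all genes 7 rises and 20 falls. Leaving out a replicate gave 2 to 6 calls in C24→C72 (2 without its replicate 1) and 0 to 1 in the difference, with GstD2 called without either replicate of C24→C72. GstD2 was also the 1 call of the difference with 12 arrays and a dye term, and with the genes of smallest spread left out. The limits of each of these settings are given above. Over all genes the difference had 9 calls, and 0 to 27 under the alternatives.

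The median over the family in C0→C24 was -0.0175 with each probe as its own feature, and -0.04125 to -0.005 without a replicate. In C24→C72 it was -0.0925 with the genes of smallest spread left out, -0.10 with median-centred arrays, and -0.13 to -0.07 without a replicate. In the net change it was -0.0175 with each probe as its own feature and -0.1475 to -0.01 without a replicate. Of the called changes of single genes, 305 values kept direction and side of the threshold under the other settings and 25 lost the call. The 305 include values whose outcome was fixed, since several settings leave the estimate as it was and no call can be lost without a fold threshold. Calls were also lost without a replicate, as given above for single genes.

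Deviations of equal replicate numbers correlated weakly between comparisons, at -0.12, 0.02 and -0.08. The sample titles do not say whether equal numbers share RNA, and these values cannot exclude such pairing. With a replicate block the calls were 10 (NC0→NC24), 8 (C0→C24), 6 (C24→C72), 0 (the difference) and 10 (the net change), the same counts as without it. With the sign of the block reversed in C24→C72, an alternative chosen after seeing the data, none of the 35 genes was called in the difference.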
